A study of Mus musculus with 18 samples.

Results

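The 8 genes of necroptosis, pyroptosis and the caspases tied to them were examined: Ripk1, Ripk3, Mlkl, Casp8, Casp1, Casp4, Casp12 and Gsdmd. They were picked by name, by gene symbol in the EO771 table and by the Ensembl identifier of that symbol in the endothelial table. The 8 members stand among 55401 genes of the endothelial table and 22612 of the EO771 table, and all 8 passed the filter for testing (a mean value of at least 10) in both, where 18511 and 11602 genes passed. RNA-seq had been done on 18 mouse libraries, 3 in each of 6 groups. Blood endothelial cells (BECs) came from the mammary fat pad of mice that had no tumour (BEC normal) or from the primary EO771 tumour (BEC tumour). High endothelial cells (HECs) came from lymph nodes of mice without a tumour (HEC normal), or from nodes of tumour-bearing mice that the labels name lymph node metastases (HEC tumour). All mice were wild-type female C57BL/6, and the cells had been sorted as CD45- and CD31 high, with the high endothelial antigen PNAd present on HECs and absent on BECs. EO771 is a mouse breast cancer cell line, and its cells received vehicle (DMSO in saline) or the ALOX12 product 12-HETE. The study's legends call the RNA-seq experiments independent, while the labels do not tie a library to a mouse or culture, so p-values measure the spread between these libraries.

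Necroptosis is a lytic form of death in which the kinase RIPK1 passes a signal from death receptors to the kinase RIPK3, which phosphorylates the pore-forming protein MLKL. Caspase-8, held in the same complex, cleaves both kinases and so restrains this route while it can start apoptosis. Pyroptosis is lysis through pores of gasdermin D, which is cut by caspase-1 on inflammasomes or, in mice, by the Casp4 product when it binds bacterial lipopolysaccharide in the cytosol. Casp12 lies beside Casp1 and Casp4 in a cluster of inflammatory caspase genes. Several of these genes are known to be induced by interferons, and endothelial cells can die by both routes.

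Promoters are shown for the 4 members whose change with tumour differed more than 2-fold between BECs and HECs, Ripk3, Casp8, Casp1 and Casp4, and for Casp12, which neighbours the last of these. RefSeq (GRCm38.p6) had promoter windows of 300 bases, from 250 before to 50 after a start site, for 7 of the 8 members and 9 windows in all, and none for Gsdmd. Each window is written 5′ to 3′ on the strand of its gene. Capitals mark matches on either strand to GAAANNGAA, the core of the interferon-stimulated response element, or to TTCNNNGAA, the gamma-activated site. The windows are chr14:55788808-55789107 (minus strand) for Ripk3, chr1:58802252-58802551 for Casp8, chr9:5298267-5298566 for Casp1, chr9:5308599-5308898 for Casp4 and chr9:5345226-5345525 for Casp12, all but the first on the plus strand.
Ripk3: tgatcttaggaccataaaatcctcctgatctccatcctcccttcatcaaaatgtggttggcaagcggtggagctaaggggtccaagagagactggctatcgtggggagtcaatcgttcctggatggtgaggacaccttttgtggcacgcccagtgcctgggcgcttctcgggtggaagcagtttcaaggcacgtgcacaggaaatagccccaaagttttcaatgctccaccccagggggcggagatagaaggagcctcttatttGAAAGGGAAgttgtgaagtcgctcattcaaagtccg
Casp8: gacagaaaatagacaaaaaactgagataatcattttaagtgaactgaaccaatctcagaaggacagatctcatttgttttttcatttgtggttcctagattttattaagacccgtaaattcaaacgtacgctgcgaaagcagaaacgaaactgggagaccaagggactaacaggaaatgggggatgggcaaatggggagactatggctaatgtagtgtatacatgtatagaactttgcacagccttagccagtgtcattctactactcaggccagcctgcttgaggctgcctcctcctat
Casp1: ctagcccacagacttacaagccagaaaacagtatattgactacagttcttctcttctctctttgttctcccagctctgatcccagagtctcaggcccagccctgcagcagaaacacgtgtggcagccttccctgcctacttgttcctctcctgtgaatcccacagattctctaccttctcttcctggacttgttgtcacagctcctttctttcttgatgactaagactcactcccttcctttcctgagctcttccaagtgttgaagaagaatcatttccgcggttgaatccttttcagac
Casp4: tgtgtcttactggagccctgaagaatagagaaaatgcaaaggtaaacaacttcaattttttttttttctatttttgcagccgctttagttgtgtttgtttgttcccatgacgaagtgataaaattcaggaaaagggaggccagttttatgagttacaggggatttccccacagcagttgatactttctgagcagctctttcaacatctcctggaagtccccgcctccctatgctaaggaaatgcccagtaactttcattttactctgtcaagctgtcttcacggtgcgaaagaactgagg
Casp12: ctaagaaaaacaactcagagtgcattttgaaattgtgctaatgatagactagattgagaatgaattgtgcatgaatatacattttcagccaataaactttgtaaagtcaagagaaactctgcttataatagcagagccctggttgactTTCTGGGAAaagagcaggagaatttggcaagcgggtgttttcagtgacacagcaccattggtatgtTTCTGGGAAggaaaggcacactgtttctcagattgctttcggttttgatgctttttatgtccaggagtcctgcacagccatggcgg
The Ripk3 window held 1 match to GAAANNGAA, beginning 15 bases after the start. The Casp12 window held 2 matches to TTCNNNGAA, at -102 and -36. Of the windows not printed, the second of Ripk1 held 1 match to GAAANNGAA at -5 and 2 to TTCNNNGAA, at -108 and -11, of which the last overlaps the first-named motif. No match was found in the windows of Casp8, Casp1, Casp4 and Mlkl or the first window of Ripk1. Over all 32851 promoters of this length, 8.56% held GAAANNGAA and 8.30% held TTCNNNGAA. A match is a run of letters and was not tested as a binding site.

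Total values ran from 56.4 to 79.4 M per endothelial library and from 17.3 to 18.6 M per EO771 library. The endothelial values rose in steps of about 3.7 (3.67 to 3.71 by library), so a total does not count fragments. Levels below are DESeq2 normalised counts (deposited values scaled for library size), given as mean ± SD over 3 libraries. The endothelial label held in all 12 sorted libraries, where all 10 pan-endothelial markers were detected and summed to between 2494 and 3654 CPM (counts scaled to library size). The sums were uneven, at 2494 to 2555 CPM in BEC tumour against 3410 to 3654 in BEC normal, with HECs at 2624 to 2777. With tumour, 3 of the 10 markers were lower in BECs and none was higher. Mean Cldn5 fell from 17771 to 23.8 normalised counts there, Kdr from 24424.5 to 4843 and Esam from 19831 to 5432. Cldn5 averaged 74.7 without tumour and 67.2 with it in HECs. The part of these shifts in the member results was not tested. High endothelial markers summed to 970 to 3049 CPM in HECs and to at most 1.19 CPM in BECs. Glycam1, Chst4 and Fut7 carried the HEC sums, and the other listed markers, Ccl21a and Madcam1, did not follow them. Ccl21a was at 0 in every HEC library and averaged 37.7 normalised counts in BEC tumour. Madcam1 was at 0 in HECs without tumour and averaged 5.53 with it, against 20.9 and 5.60 in BECs. HEC normal replicate 2 stood apart with 4.07 normalised counts of Chst4 against 19906 and 20205 in the others, and HEC tumour replicate 3 with 14255 of Fut7 against 66477 and 65523. Leaving out the first of these changed one call on the members, that of Casp12 given below, and leaving out the other changed none. Myeloid markers stood apart in BEC tumour, where all 12 were higher than in BEC normal and summed to 1734 to 2431 CPM, against 114 to 137 in BEC normal, 486 to 510 in HEC normal and 357 to 375 in HEC tumour. Cd68 made up most of the sum in HECs, and the other 11 markers summed to 899 to 1524 CPM in BEC tumour, 12.9 to 19.8 in BEC normal, 7.73 to 10.1 in HEC normal and 5.41 to 8.97 in HEC tumour. In the BEC tumour libraries 5 of the 5 tested lymphocyte markers and 4 of the 5 epithelial markers were higher than in BEC normal. The lists summed to 25.5 to 43.5 and 14.3 to 84.3 CPM. Cd4 averaged 32.2 CPM of a mean lymphocyte sum of 35.8 CPM. The T cell markers Cd3e, Cd3d, Cd2 and Cd8a were too low to be tested and averaged 0.06 to 0.22 CPM. The highest epithelial sum was that of replicate 3, while replicates 1 and 2 held 14.3 and 18.1 CPM. In HECs the epithelial sum, mostly Krt19, was 27.9 to 31.2 CPM without tumour and 31.2 to 34.1 CPM with it. In BEC tumour stromal markers went the other way, with 6 of 7 lower and Dcn higher than in BEC normal. They summed to 224 to 233 CPM in BEC normal and 38.5 to 71.2 CPM in BEC tumour. In HECs they summed to 22.8 to 23.7 CPM without tumour and 11.0 to 11.9 CPM with it. In such bulk samples, fewer cells of a type and less RNA per cell cannot be told apart.

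A member was called where its DESeq2 adjusted p was under 0.05 and its change over 2-fold. In HEC normal against BEC normal, 1 member was higher (Casp4) and 2 were lower (Ripk3 and Casp8), where 17.1% of all genes tested were higher and 15.1% lower. In HEC tumour against BEC tumour, 2 were lower (Ripk3 and Casp1) where 10.7% of genes were, and no member was higher where 11.2% were. That count of 0 was also given by edgeR, and 1 member was higher at an unadjusted p under 0.05. In BEC tumour against BEC normal, 2 members rose (Casp1 and Casp4), where 12.4% of genes were higher, and 2 fell (Ripk3 and Casp8), where 10.8% were lower. In HEC tumour against HEC normal, 0 of the 8 members were called by DESeq2 or by edgeR, where 4.58% of genes were higher and 3.21% lower. At an adjusted p under 0.05 with no limit on fold, 4 members were lower in HEC tumour and none higher, against 18.5% and 16.9% of all genes, and the same number of members had an unadjusted p under 0.05. The median log2 fold change of the 8 members in that comparison was −0.62, beside 0.0187 over all genes. In the other 3 comparisons of endothelial groups it was −0.16, −0.03 and −0.14 in the order given, beside 0.0046, 0.0060 and 0.0083.

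**Figure D1:**
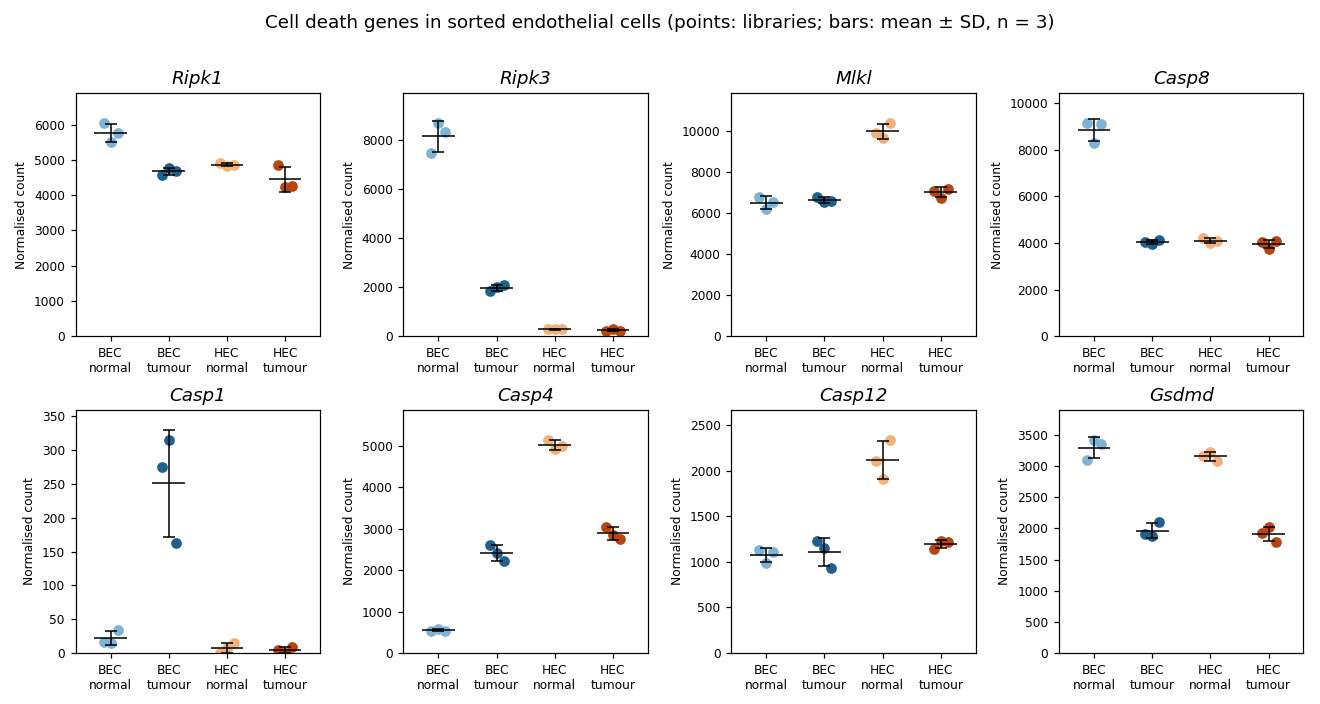
Normalised counts of the 8 genes in the 12 sorted endothelial libraries, each panel on its own linear axis from 0, with points for libraries and black bars for mean ± SD (n = 3). Ripk3 and Casp8 were highest in BEC normal, Mlkl, Casp4 and Casp12 in HEC normal, and Casp1 in BEC tumour, while Gsdmd was lower in both tumour groups.

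Ripk3, the kinase that activates MLKL, had the widest differences between cell types of the members that were abundant in a group. BEC normal libraries held 7471, 8696 and 8361 normalised counts, BEC tumour libraries 1859, 2007 and 2098, HEC normal libraries 292, 319.6 and 282, and HEC tumour libraries 235, 304 and 239. Every BEC library lay above every HEC library, and BEC normal lay above BEC tumour without overlap. Ripk3 was 27.5-fold lower in HEC normal than in BEC normal (log2 fold change −4.78 ± 0.12 SE, adjusted p too small for the software to represent). In the tumour groups it was 7.64-fold lower in HECs (−2.93 ± 0.12, adjusted p 2.27e-132). It fell 4.11-fold in BECs with tumour (−2.04 ± 0.11, adjusted p 3.25e-80). The stromal marker sum put the 4 groups in the same order as Ripk3, and the part of stromal cells in these differences was not tested. In HECs its log2 fold change with tumour was −0.19 ± 0.13 (adjusted p 0.242), and the change differed between cell types by an interaction of 1.85 ± 0.17 (adjusted p 1.88e-27).

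Ripk1, the kinase that links death receptors to survival or death, varied least among the more abundant members. BECs held 5769 ± 259 without tumour and 4677 ± 107 with it, and HECs 4858 ± 43.9 without and 4445 ± 346 with it. The log2 fold change was −0.25 ± 0.07 in HEC normal against BEC normal (adjusted p 0.00046) and −0.30 ± 0.07 in BEC tumour against BEC normal (adjusted p 2.07e-05), both under 2-fold. Differences between the tumour groups and between the HEC groups did not pass (adjusted p 0.365 and 0.130). Its exons share 241 bases with Serpinb6a, on the opposite strand, and 511 bases with Gm17084, out of 8344, so part of its value may belong to those genes.

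Mlkl, which forms the necroptotic pore, was highest in HEC normal, where libraries held 9934, 9686 and 10387 normalised counts. BEC normal libraries held 6815, 6193 and 6543, BEC tumour libraries 6804, 6549.6 and 6607, and HEC tumour libraries 7112, 6754 and 7206. No HEC normal library overlapped another group, and both BEC groups overlapped. The difference of HEC normal from BEC normal was 0.62 ± 0.06 on the log2 scale (adjusted p 3.59e-28), and its log2 fold change with tumour in HECs was −0.51 ± 0.06 (adjusted p 7.64e-19), both under 2-fold. In BECs its change with tumour was 0.03, with a 95% interval of −0.08 to 0.14. The interaction was −0.54 ± 0.08 (adjusted p 4.06e-11).

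Casp8, the initiator caspase that restrains RIPK3, was highest in BEC normal and lay between 3744 and 4204 normalised counts in the other 3 groups. BEC normal libraries held 9127, 8299.6 and 9089.8, BEC tumour libraries 4030.4, 3955 and 4115, HEC normal libraries 4204, 3994 and 4071, and HEC tumour libraries 4029, 3744 and 4085. It was 2.16-fold lower in HEC normal than in BEC normal (log2 fold change −1.11 ± 0.06, adjusted p 8.73e-75) and fell 2.19-fold in BECs with tumour (−1.13 ± 0.06, adjusted p 1.51e-77). HEC tumour differed from BEC tumour by −0.03 (95% interval −0.15 to 0.09) and from HEC normal by −0.05 (−0.17 to 0.07). Its interaction was 1.08 ± 0.09 (adjusted p 4.18e-35). BEC normal also had the highest stromal marker sum, and the part of those cells in the Casp8 differences was not tested.

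Casp1, the caspase that inflammasomes activate, was scarce outside BEC tumour. BEC tumour libraries held 275, 315 and 163 normalised counts and BEC normal libraries 15.9, 15.3 and 33.5, without overlap. HEC normal libraries held 0, 8.14 and 15.3 and HEC tumour libraries 4.62, 0 and 8.85, which is a total of 6 and of 3 steps of the deposited values. Casp1 rose with tumour in BECs (log2 fold change 3.54 ± 0.88, adjusted p 0.000188), and with one library left out in turn the value ran from 3.34 to 3.999. Against BEC tumour its log2 fold change in HEC tumour was −5.82 ± 0.96 (adjusted p 6.47e-09), a ratio of 62.8 in steps with an exact 95% counting interval of 21.2 to 307. Without HEC tumour replicate 2 this log2 difference was −5.22 and without HEC tumour replicate 3 it was −6.82. HEC normal and BEC normal did not differ detectably (−1.46 ± 0.93, adjusted p 0.161), although without HEC normal replicate 3 the adjusted p was 0.0349 at −2.40. The interaction of −4.36 ± 1.33 (adjusted p 0.0032) became −3.42 without HEC normal replicate 3, −3.76 without HEC tumour replicate 2, −4.96 without HEC normal replicate 1 and −5.37 without HEC tumour replicate 3. Such counting intervals pool the libraries of a group and leave out the spread between them. Libraries within an endothelial group differed by a chi-square of 15.1 to 30.4 per gene, with values divided by the step, where sampling alone gives 1. PCR copies of one molecule also cannot be told from separate molecules without identifiers.

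Casp4, which triggers pyroptosis in response to lipopolysaccharide, was higher with tumour in BECs and lower with tumour in HECs. BEC normal libraries held 541, 580.1 and 538 normalised counts, BEC tumour libraries 2619, 2410.2 and 2221, HEC normal libraries 5142, 4919 and 5003, and HEC tumour libraries 3056, 2861 and 2749. The 4 groups did not overlap. Without tumour Casp4 was 9.09-fold higher in HECs than in BECs (log2 fold change 3.18 ± 0.09, adjusted p 1.08e-303) and rose 4.37-fold in BECs with tumour (2.13 ± 0.09, adjusted p 1.04e-133). Its log2 fold change with tumour in HECs was −0.80 ± 0.08, short of 2-fold (adjusted p 2.54e-22). HEC tumour and BEC tumour lay 1.195-fold apart (0.26 ± 0.08, adjusted p 0.00303), and the interaction was −2.93 ± 0.12 (adjusted p 1.28e-136).

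The rise of Casp1 and Casp4 in BEC tumour came in the libraries with the most myeloid transcripts, and the part of those cells in it was not tested. The leukocyte gene Ptprc had 855, 728 and 401 normalised counts in BEC tumour against 8.24 to 24.7 in BEC normal, and the macrophage gene C1qa 6887, 6231 and 3847 against 0 in all BEC normal libraries. For both, and for Casp1 and Casp4, BEC tumour replicate 3 was the lowest of its group. That also held for Casp12 (934), which did not rise with tumour in BECs (log2 fold change 0.04), and for no other member. In HEC tumour C1qa was at 0 in all 3 libraries and Ptprc at 0 in 2 of 3, while Casp4 was above its BEC tumour level.

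**Figure D2:**
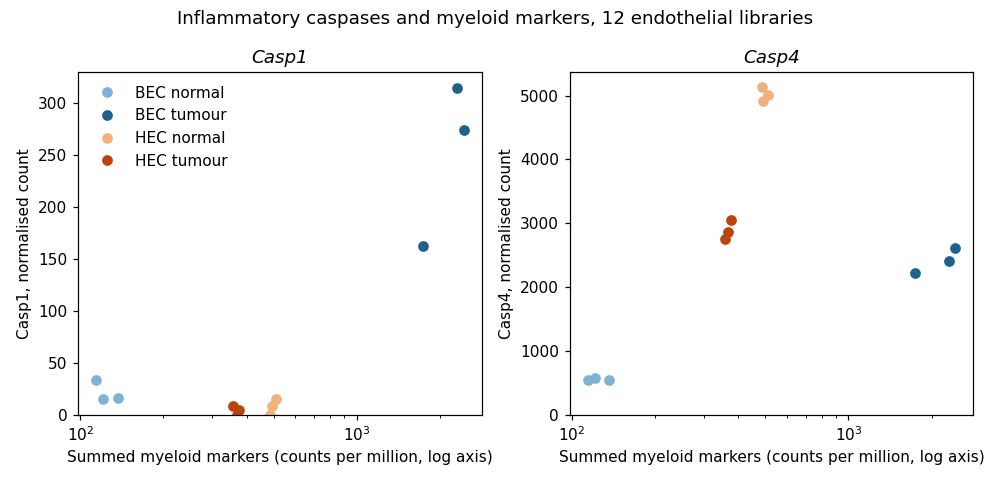
Casp1 (left) and Casp4 (right) normalised counts, from 0, against the summed CPM of 12 myeloid markers on a log axis, one point per endothelial library. Casp1 was highest in BEC tumour, where the marker sum was 1734 to 2431 CPM, whereas Casp4 was highest in HEC normal, where the sum was 486 to 510 CPM, of which Cd68 alone held 477 to 503 CPM.

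Casp12, an inflammatory caspase of the same cluster, shared the pattern of Mlkl. HEC normal libraries held 2104, 1908 and 2334 normalised counts and lay above all others. BEC normal libraries held 1124, 988 and 1107, BEC tumour libraries 1233, 1153 and 934, and HEC tumour libraries 1138, 1225 and 1219.8. The difference of HEC normal from BEC normal was 0.98 ± 0.13 on the log2 scale (adjusted p 5.21e-14), just short of 2-fold. It passed 2-fold without BEC normal replicate 1 (1.01), without HEC normal replicate 2 (1.05), with edgeR (1.02) and with TMM size factors in DESeq2 (1.02). With tumour its log2 fold change was −0.82 ± 0.13 in HECs (adjusted p 9.87e-10), under 2-fold, and in BECs its change with tumour was 0.04 (95% interval −0.21 to 0.29). The interaction was −0.87 ± 0.18 (adjusted p 6.41e-06). Over the 12 endothelial libraries, Casp12 and Mlkl had a Pearson r of 0.97 on log2(normalised count + 1), the highest between any pair of members, as a description of libraries that fall into 4 groups.

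Gsdmd, the gasdermin that both inflammatory routes cut, was lower with tumour by a like amount in both cell types. BEC normal libraries held 3104, 3417 and 3362 normalised counts and HEC normal libraries 3154, 3221 and 3089. BEC tumour libraries held 1903, 1881 and 2103 and HEC tumour libraries 1919.8, 2024 and 1786. The tumour groups did not overlap the normal groups, while BECs and HECs overlapped within each state. The change with tumour was −0.75 ± 0.08 on the log2 scale in BECs (adjusted p 2.20e-21) and −0.72 ± 0.08 in HECs (adjusted p 2.76e-19), both under 2-fold. The interaction was 0.02, with a 95% interval of −0.19 to 0.24.

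**Figure D3:**
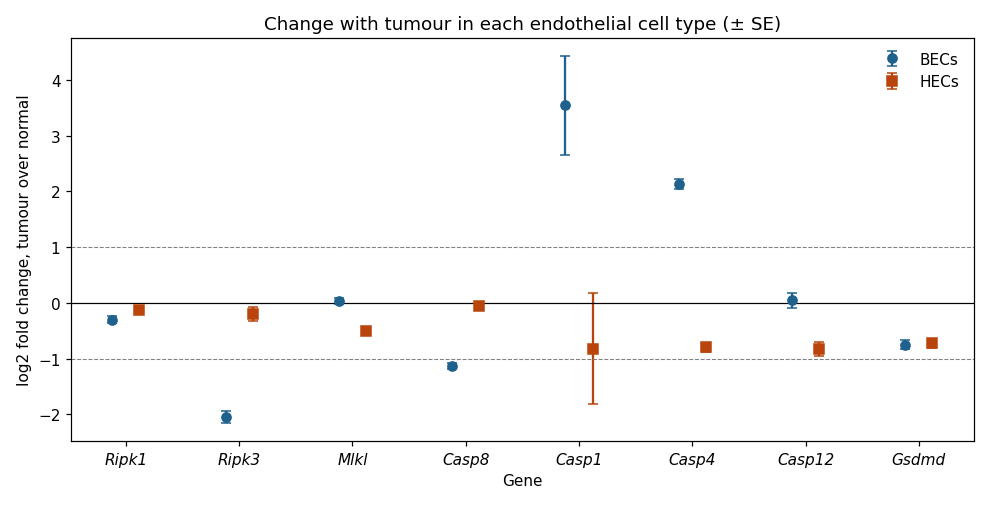
Log2 fold change with tumour (± SE) of each gene in BECs (circles) and HECs (squares), with dashed lines at 2-fold. Casp1 and Casp4 were above 2-fold in BECs. In HECs Casp4 was below 0, and the Casp1 change (−0.82 ± 1.00, DESeq2 adjusted p 0.578) did not pass the test. Ripk3 and Casp8 lay past the lower line in BECs but not in HECs, and the Gsdmd points lay side by side.

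The difference in the change with tumour was called for 2 members in the positive direction (Ripk3 and Casp8), where 11.2% of all genes were, and for 2 in the negative direction (Casp1 and Casp4), where 12.1% were. The median interaction of the 8 members was −0.26, beside −0.0019 over all genes. Between HECs and BECs of tumour-bearing mice, 6 members lay within 0.26 of each other on the log2 scale, the exceptions being Ripk3 and Casp1. HECs and BECs came from different tissues, as did BEC normal and BEC tumour, so cell type or tumour and tissue of origin cannot be told apart.

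**Figure D4:**
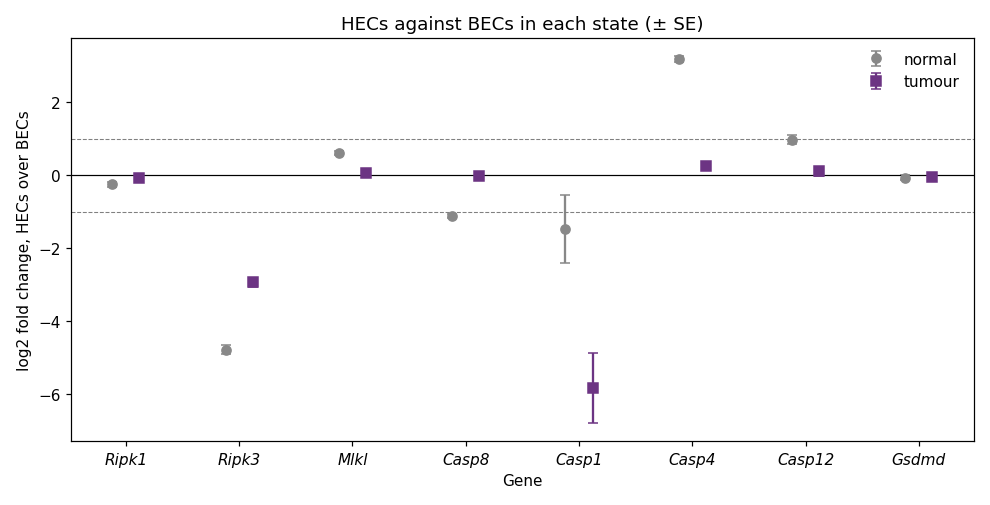
Log2 fold change of HECs over BECs (± SE) for each gene in the normal (circles) and tumour (squares) groups, with dashed lines at 2-fold. All members but Ripk3 and Casp1 were near 0 in the tumour groups, and Casp4 was 3.18 higher in the normal ones.

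Per kilobase of merged exon, which allows levels to be set against each other between genes, Ripk3 led in BEC normal (3567 ± 276 normalised counts per kb), followed by Casp8 (3055 ± 162) and Mlkl (2830 ± 135), where neighbouring SDs of the last pair overlap. Mlkl led in the other 5 groups, with 4343 ± 154 in HEC normal, 3050 ± 104 in HEC tumour and 2889 ± 57.9 in BEC tumour. Casp1 was the lowest member per kb in all 4 endothelial groups. Ripk3 was the lowest per kb in both EO771 groups, where in vehicle it was level with Casp12 (24.2 ± 5.59 and 24.3 ± 3.03). In HEC normal Casp8, Casp4 and Gsdmd lay between 1327 and 1414 per kb and with overlapping SDs between neighbours in that order.

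Casp1, Casp4 and Casp12 lie in a row on the plus strand of chromosome 9 (GRCm38), at 5298517-5307265, 5308828-5336783 and 5345430-5373032, with no other tested gene between them. Their patterns over the endothelial groups differed, as given above. The nearest tested genes before the cluster were Gm7390 and Gria4 and those after it Pdgfd and Dync2h1. Between BEC tumour and BEC normal Gria4 was higher (1.41 ± 0.26, adjusted p 1.65e-07), while Gm7390 (−0.74), Pdgfd (−0.75) and Dync2h1 (0.56) were not called. Between HEC normal and BEC normal Gm7390 was lower (−1.87 ± 0.26, adjusted p 1.66e-12), and the other three were not called.

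The genes most like each member over the 12 endothelial libraries were ranked by Pearson r of log2(normalised count + 1). For Ripk3 they were Hs6st1, Cap2 and 3110039M20Rik (r all 0.996 to 0.998), and the last 2 were at 0 in both HEC groups. Among those for Gsdmd were Usp18 (0.990) and Lgals9 (0.989). Usp18, an interferon-induced gene, averaged 17691 and 16935 normalised counts in BEC normal and HEC normal against 3413 and 3223 in the tumour groups. Mlkl was most like Uhrf2 (0.990), Fbxo32 (0.988) and Trim12a (0.977), and Casp12 shared the first 2 of these (0.982 and 0.961), followed by Sfr1 (0.952). Casp4 was most like Fosl2, Depp1 and Vegfb (0.995 each). Casp8 was most like 4930578C19Rik, Gm20467 and Slc34a1 (0.996 each), which were at 0 outside BEC normal. Ripk1 had Aaed1, Kdm5b and Sh3bp4 (0.952 to 0.961) and Casp1 had Gpr157, Prrc2b and Pla2g7 (0.932 to 0.959).

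Of 23 genes of the death receptor complex and its partners, 22 were tested in endothelial cells. In BEC tumour against BEC normal 1 was higher and 3 were lower, where 12.4% of all genes were higher and 10.8% lower. Cyld, a deubiquitinase that acts on RIPK1, rose from 2129 ± 117 to 5076 ± 187 normalised counts (log2 fold change 1.25 ± 0.08). Zbp1, a nucleic acid sensor that can engage RIPK3, fell from 2946 ± 595 to 736 ± 117 (−2.001 ± 0.20, adjusted p 6.97e-22), as did Tnfaip3 (−1.42) and the death ligand Tnfsf10 (−1.19). In HEC tumour against HEC normal 1 was higher, Tnfaip3 (1.39 ± 0.32), where 4.58% of all genes were. There 3 were lower, Tnfsf10 (−1.90), Zbp1 (−1.78 ± 0.20, from 2214 ± 255 to 643 ± 134) and Rnf31 (−1.03), where 3.21% of all genes were. Exons of Rnf31 overlap Irf9, an interferon-induced gene, so its values are uncertain. In HEC normal against BEC normal Rnf31 (1.43) and Cyld (1.16) were higher and Tnfaip3 was lower (−2.35), and Xiap, an inhibitor of apoptosis, was the one gene called between the tumour groups (1.15 higher in HECs). By the interaction Tnfaip3 was positive (2.81) and Cyld (−1.63) and Rnf31 (−1.36) were negative. Over all genes 11.2% were positive and 12.1% negative.

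Of 19 inflammasome sensors, adaptors, gasdermins and cytokines, 16 were tested in endothelial cells. In BEC tumour against BEC normal 6 were higher and 1 lower, where 12.4% of all genes were higher and 10.8% lower. The sensors Nlrp1a and Mefv were at 0 in all BEC normal libraries and averaged 247 ± 77.2 and 48.3 ± 20.1 normalised counts in BEC tumour, which put Nlrp1a at least 82.4-fold and Mefv at least 16.1-fold above a floor of 3 per library. Nlrc4, which forms an inflammasome with the NAIP proteins, rose from 4.3 ± 4.8 to 78.9 ± 18.1. These rises came with the myeloid markers given above, and the part of those cells in them was not tested. Nlrp1b went the other way, from 893 ± 81 to 7.04 ± 9.33, a ratio of 138 in steps with an exact 95% counting interval of 63.2 to 378. Nlrp1a and Nlrp1b are close paralogs, so reads may have been exchanged between them. In HEC tumour against BEC tumour 6 were lower and none was higher by DESeq2 or edgeR, with 2 higher at an unadjusted p under 0.05. Over all genes 10.7% were lower and 11.2% higher in that comparison. Among the lower were Pycard, the adaptor that joins sensors to caspase-1, which was at 0 in HEC tumour and at 114 to 189 in BEC tumour (at least 52.5-fold), Nlrc4 and Mefv. Exons of Pycard and Il1a overlap predicted genes, which leaves their values uncertain. In HEC normal against BEC normal Nlrp1a was at least 29.3-fold higher, and Nlrp1b and Naip2 (−2.14) were lower. Il1a was called higher there at 22.7 ± 10.2 against 4.7 ± 8.2 (DESeq2 adjusted p 0.038), although its libraries overlapped. In that comparison edgeR called 1 gene of this list higher where DESeq2 called 2. Over all genes 17.1% were higher and 15.1% lower there. In HEC tumour against HEC normal Nlrp1a rose (1.61 ± 0.41) and none was lower by DESeq2 or edgeR, with 1 lower at an unadjusted p under 0.05. Over all genes 4.58% were higher and 3.21% lower there. By the interaction 4 were negative, led by Nlrp1a, Mefv and Il18, and Nlrp1b was positive, where 12.1% of all genes were negative and 11.2% positive.

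Of 12 apoptotic caspase, apoptosome and nuclease genes, 11 were tested. Casp6, an effector caspase, was lower in HEC normal (1007 ± 113) and in BEC tumour (1002 ± 118) than in BEC normal (2046 ± 173). Its log2 fold changes of −1.02 and −1.03 were just past 2-fold. In BEC tumour against BEC normal DESeq2 called 1 of the 11 lower and edgeR none, where 10.8% of all genes were lower. In HEC normal against BEC normal edgeR called 1 lower where DESeq2 called 2, and 15.1% of all genes were lower. In HEC tumour against BEC tumour 1 was higher and 2 lower, where 11.2% and 10.7% of all genes were. In HEC tumour against HEC normal 1 was higher and 1 lower, where 4.58% and 3.21% of all genes were. Dffa, the inhibitor of the apoptotic nuclease, was lower in HECs than in BECs without tumours (−1.67) and with them (−1.04), and Dffb, the nuclease itself, was higher in HEC tumour than in BEC tumour (1.31) and HEC normal (1.08). Casp9, the apoptosome caspase, was lower in HEC tumour than in BEC tumour (−1.51) and HEC normal (−1.18), and its exons overlap Cela2a and Ctrc. It averaged 466 ± 279 in HEC tumour, with libraries from 145 to 645. BEC tumour held 1326 ± 200 and HEC normal 1053 ± 88.9. Whether the Casp9 calls hold without its lowest library was not examined. By the interaction Dffb was positive (2.02) and Casp9 negative (−1.54), where 11.2% of all genes were positive and 12.1% negative.

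In EO771 cells 12-HETE was given to ask how it alters tumour cell transcripts. With 12-HETE 3 members fell (Casp4, Gsdmd and Ripk3), where 7.79% of all genes tested were lower, and none was higher by DESeq2, by edgeR or at an unadjusted p under 0.05, where 2.38% were higher. The median log2 fold change of the members was −0.52, beside 0.0012 over all genes. Epithelial markers summed to 3051 to 3977 CPM in vehicle and 2042 to 2092 CPM with 12-HETE. The part of that shift in the results below was not tested. Krt8, Krt18 and Krt19 carried the sums, and the other listed markers, Epcam and Cdh1, were low. Epcam averaged 18.5 CPM in vehicle and 15.8 CPM with 12-HETE, and Cdh1 averaged 2.37 and 0.595 CPM. Of the stromal markers Dcn held 385 to 608 CPM in vehicle and 987 to 1028 CPM with 12-HETE, while the other 6 summed to 4.55 to 5.49 and 9.34 to 11.3 CPM. Libraries of 12-HETE differed among themselves by a chi-square of 2.48 to 2.83 per gene, where sampling alone gives 1, and vehicle libraries by 17.5 to 49.4, so the vehicle group carries most of the spread.

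Casp4 held 465, 633 and 579 normalised counts in vehicle and 148, 146 and 123 with 12-HETE, and the groups did not overlap. It fell by 2.01 ± 0.17 on the log2 scale (adjusted p 3.78e-29). Gsdmd held 332, 442 and 397 in vehicle and 156, 147 and 135 with 12-HETE, also apart, and fell by 1.42 ± 0.17 (adjusted p 2.23e-15). Mlkl, with 2610.5, 2779.8 and 2912 in vehicle and 1498, 1544 and 1509 with 12-HETE, had a log2 fold change of −0.87 ± 0.09 (adjusted p 1.39e-21), under 2-fold. Ripk3 was scarce, with 69.3, 44.0 and 53.2 in vehicle and 28.8, 25.6 and 26.6 with 12-HETE. The Ripk3 groups did not overlap, and it fell by 1.04 ± 0.33 (adjusted p 0.00557). This call was lost without vehicle replicate 1 (−0.85, adjusted p 0.0705) and without 12-HETE replicate 2 (−1.003, adjusted p 0.0509).

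The other 4 members did not pass the test with 12-HETE. Ripk1 held 1318, 1119 and 1353 normalised counts in vehicle and 1169, 1205 and 1187 with 12-HETE (adjusted p 0.522). Casp8 held 1256, 1461 and 1409 and then 1549.7, 1537 and 1605, which do not overlap, with a log2 fold change of 0.19 (adjusted p 0.112). Casp1 held 173, 233 and 174 and then 193, 188 and 192, and its 95% interval ran from −0.37 to 0.34 on the log2 scale. Casp12 held 83.1, 106 and 91.1 and then 92.4, 80.8 and 76.8 (adjusted p 0.564). Of the caspase cluster on chromosome 9, Casp4 was therefore called and Casp1 and Casp12 were not, and whether their changes differ was not tested.

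**Figure D5:**
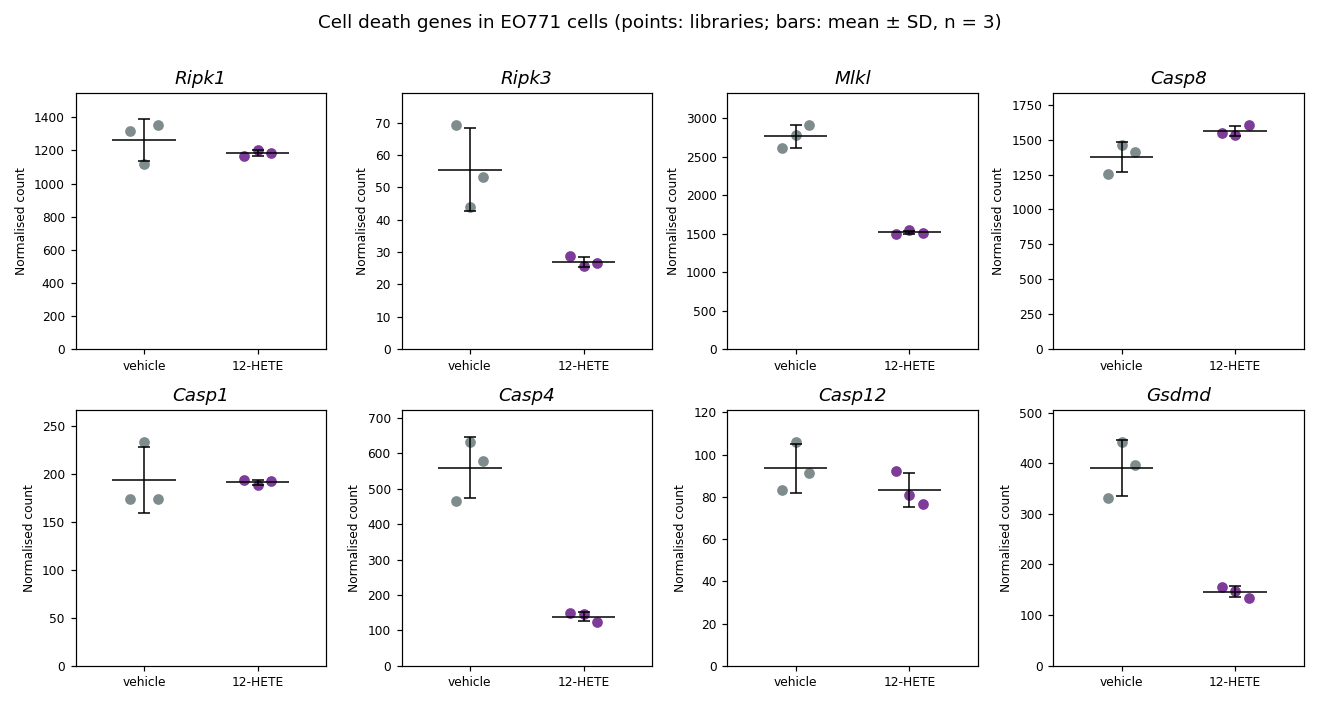
Normalised counts of the 8 genes in the 6 EO771 libraries, each panel on its own linear axis from 0, with points for libraries and black bars for mean ± SD (n = 3). Casp4, Gsdmd, Mlkl and Ripk3 were lower with 12-HETE at a DESeq2 adjusted p under 0.05, Mlkl by under 2-fold. The Casp8 change (log2 fold change 0.19, DESeq2 adjusted p 0.112) did not pass the test.

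Of the death receptor list 21 genes were tested in EO771 cells. Of these 5 fell and none rose by DESeq2 or edgeR, with 1 higher at an unadjusted p under 0.05. Over all genes 7.79% fell and 2.38% rose. Zbp1 held 2605, 2065 and 2671 normalised counts in vehicle and 4.11, 0.99 and 3.94 with 12-HETE, a ratio of 814 with an exact 95% counting interval of 429 to 1782. Tnfsf10 fell from 102 ± 11.3 to 13.4 ± 4.9 (log2 fold change −2.93 ± 0.35) and Tnfaip3 from 1465 ± 188 to 196 ± 3.9 (−2.90 ± 0.14). The other called genes were Rnf31 (−1.44), which overlaps Irf9, and the death receptor Fas (−1.07). Of 8 inflammasome genes tested 0 were called by DESeq2 or edgeR, with 2 higher at an unadjusted p under 0.05. Of 11 apoptosis genes DESeq2 called 1, Dffb (−1.15 ± 0.44, adjusted p 0.0225), from 154 ± 117 to 69.6 ± 7.0, and edgeR called none. For 3 of those 11 an unadjusted p under 0.05 came with a higher value under 12-HETE, and for 4 with a lower one.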

How the data were processed

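RNA-seq values of 18 libraries were used, 3 per group, grouped by the labels. For endothelial cells, per the study's methods, the authors aligned reads with STAR to GRCm38 and counted with featureCounts. The deposited endothelial values are whole numbers in steps of about 3.7, so they were treated as estimated counts as deposited. For EO771 the authors deposited raw counts per gene symbol. Whether counting used the strand is not given in the sources used here.

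Genes with a mean value of at least 10 were tested with DESeq2 1.42.0 (R 4.3.3, two-sided Wald test, Benjamini-Hochberg adjustment over all genes tested), in one fit of the 12 endothelial and one of the 6 EO771 libraries, with group as the only term. A call needed an adjusted p under 0.05 and a log2 fold change over 1 in size. An exact permutation test of 3 against 3 cannot go below 0.1. Alternatives used edgeR 4.0.16, TMM size factors, no filter, a replicate block, adjusted p alone, each library left out, fits of 2 groups, and values divided by the step. The scripts were tested on simulated data. Of the identifiers, 260 endothelial and 298 EO771 ones had no match. Intervals of differences are 1.96 SE either side.

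The members and gene lists were chosen with earlier results of these data known. Named genes were all members, up to 3 called genes with the largest change per list, direction and comparison, the 3 genes most correlated with each member (of which 1 is not reported here), and the 2 nearest tested genes on each side of the Casp1 cluster. The counting intervals of Casp1, Zbp1 and Nlrp1b were chosen after their values were seen. Annotation was GENCODE M21 and promoters were from RefSeq GRCm38.p6. No pair of libraries held identical values.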

Additional observations from a re-analysis of the deposited data

Results flagged for a closer look

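For 4 members the change with tumour differed between the 2 cell types by an adjusted p under 0.05 and by over 2-fold, which is what brought them here. Mlkl (−0.54) and Casp12 (−0.87) passed on the adjusted p but stayed under 2-fold. Ripk3 (1.85) and Casp8 (1.08) fell with tumour in BECs, and their changes in HECs did not pass the test. Casp1 (−4.36) and Casp4 (−2.93) rose in BECs and did not rise in HECs. Casp1 rests on few counts in HECs. HEC and BEC groups came from different tissues, which cannot be told apart from cell type.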

How the results depend on the processing

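Most counts of called members stayed within 1.5 times their value under the alternatives tried. The exceptions were the members called higher in HECs against BECs without tumours, which went from 1 to 2 with edgeR, to 2 with TMM size factors in DESeq2 and to 3 by adjusted p alone, and ran from 1 to 2 with single libraries left out. By adjusted p alone the count also went from 0 to 1 higher in HEC tumour against BEC tumour, from 0 to 4 lower in HEC tumour against HEC normal, from 2 to 4 lower in BEC tumour against BEC normal, and from 2 to 4 negative in the interaction.

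Values that changed sign were all uncalled. With single libraries left out, their log2 fold changes ran as follows. In HEC tumour against BEC tumour they ran from −0.0530 to 0.0085 for Casp8, from −0.00084 to 0.19 for Casp12 and from −0.0831 to 0.0109 for Gsdmd. Casp1 ran from −1.82 to 0.12 in HEC tumour against HEC normal and from −0.0953 to 0.133 in EO771. In BEC tumour against BEC normal, Mlkl ran from −0.0157 to 0.0596 and Casp12 from −0.0386 to 0.154. The Gsdmd interaction ran from −0.0242 to 0.0725. For the Gsdmd interaction, edgeR and TMM size factors in DESeq2 both gave −0.0373.

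Equal replicate numbers are not said by the labels to pair libraries. Deviations of same-numbered libraries correlated at −0.07 to 0.24 in endothelial cells and 0.093 to 0.34 in EO771. Those of unlike-numbered libraries correlated at −0.29 to 0.24 and −0.24 to 0.06. In EO771 every same-numbered pair therefore lay above every other pair. In endothelial cells 7 of 12 libraries correlated best with their own number, and in EO771 6 of 6 did. Whether the numbers pair the EO771 libraries is not known. With a replicate block, the Ripk3 change in EO771 was −1.02 (adjusted p 0.058) and no longer called. No other member call changed with the block. Depth limits Casp1 in HECs and Zbp1 with 12-HETE.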
